A study of Mus musculus with 12 samples.

Results

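The genes beside Adarb1 on mouse chromosome 10 were examined in frontal cortex RNA of male mice on C57BL/6, 6 with the genotype Adar2-/-/Gria2R/R and 6 litter mates with the genotype Adar2+/+ Gria2R/R. Adarb1 encodes ADAR2, an enzyme that deaminates adenosine in double-stranded RNA, and all 12 mice carried the Gria2R/R genotype, so the controls are not wild type at Gria2. The neighbours were taken as 32 named genes lying close to Adarb1, and 29 of them were among the 15191 genes of the deposited gene table, together with 471 of the 156805 listed exon bins. Of the 29, 27 were listed under the same name and 2 under an older name given by RefSeq, Fam207a as 1810008A18Rik and Ybey as A130042E20Rik. Ftcd, Spatc1l and Tspear were matched in neither table, so they have no expression value here. The gene table lists only genes with a mean normalized count of at least 15.01.

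A targeted allele is inherited together with the DNA that flanks it. When a line is made in embryonic stem cells of one strain and bred into another, that flanking stretch can keep the alleles of the first strain, and genes within it can differ between knockout and control mice for reasons other than loss of the targeted protein. The neighbours of Adarb1 have little in common besides position: they include collagen chains of the extracellular matrix, enzymes, a leukocyte integrin subunit, a cation channel and ribosome assembly factors. The labels name C57BL/6 and do not name the embryonic stem cells or the number of backcrosses, and no sequence variants were analysed here, so the part of flanking DNA in any difference was not tested.

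The gene table calls its groups condition A and condition B without a genotype, and the level of the targeted gene was not used to supply one. The authors' deposited table gave Adarb1 a mean normalized count of 1487.6 in condition A and 6874.5 in condition B (log2 difference -2.21, adjusted p = 3.06e-126 from the authors' DESeq table). Differences between conditions are given below as A over B, so a positive value means more RNA in condition A. The exon table does name its groups, and its values are given as knockout over control. Both tables hold group values only, so the value of each library, its spread and its depth are unknown. The labels do not say which control is the litter mate of which knockout. In whole tissue, more cells of a type and more RNA per cell cannot be told apart.

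The tissue label was compared with marker genes. Of 10 cortical neuron markers 9 were listed, among them Slc17a7, the vesicular glutamate transporter of cortical excitatory neurons, at 3234.4 mean normalized counts per kb of exon, and Camk2a at 4630.4. All 8 astrocyte, 7 oligodendrocyte and 8 microglia markers were listed. The mean was higher in condition A for 7 of 9 neuron, 6 of 8 astrocyte, 4 of 7 oligodendrocyte and 6 of 8 microglia markers. Of 8 markers of striatum, a region beneath the cortex, 7 were listed and 5 were higher in A, with a median log2 difference of 0.222 and summed mean counts of 3904.4 in A and 3507.8 in B. Pdyn, the prodynorphin gene, was among them with 1057.6 in A and 839.7 in B in the authors' deposited table (log2 difference 0.33, unadjusted p = 0.000253, adjusted p = 0.457). Ppp1r1b, which encodes the phosphatase inhibitor DARPP-32, had 702.7 in A and 572.5 in B in the authors' deposited table (log2 difference 0.30, unadjusted p = 0.00242, adjusted p = 1). The defining striatal marker Drd2 was not matched in the table. Most of these markers, like most of the neighbours below, had the higher mean in A, and the part of tissue content in the differences of the neighbours was not tested. S100b is both an astrocyte marker and a neighbour, so it counts in both groups. Of 6 choroid plexus markers 4 were listed, with a summed mean count of 367.3 in condition A and 329.0 in condition B.

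The promoters of Col6a1 and Col6a2 are shown because Col6a1 had the largest difference of all the neighbours and Col6a2 is the next listed gene beyond it, on the same strand, with a much smaller one. Both encode chains of collagen VI, a microfibril-forming collagen of the matrix around vessels, meninges and other connective tissue. Each window runs from 250 bases before to 50 bases after a RefSeq transcript start on GRCm38.p6, on the minus strand, and Col6a2 has a further window that is not shown. Capitals mark the GC box GGGCGG, searched on both strands.
Col6a1, chr10:76725995-76726294: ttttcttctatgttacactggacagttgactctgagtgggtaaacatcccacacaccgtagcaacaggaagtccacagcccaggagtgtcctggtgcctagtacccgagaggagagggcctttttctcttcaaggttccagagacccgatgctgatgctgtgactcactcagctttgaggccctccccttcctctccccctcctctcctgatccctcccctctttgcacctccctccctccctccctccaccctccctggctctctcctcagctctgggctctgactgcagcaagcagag
Col6a2, chr10:76623355-76623654: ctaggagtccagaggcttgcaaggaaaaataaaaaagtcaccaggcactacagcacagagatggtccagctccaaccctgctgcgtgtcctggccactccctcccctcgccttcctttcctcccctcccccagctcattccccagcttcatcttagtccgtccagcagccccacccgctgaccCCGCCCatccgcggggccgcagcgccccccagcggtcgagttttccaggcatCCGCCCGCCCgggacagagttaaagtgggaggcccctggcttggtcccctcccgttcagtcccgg

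The Col6a1 window held 3 CpG dinucleotides and no GC box, and the Col6a2 window held 16 CpG dinucleotides and 3 GC boxes, of which 2 overlap. The further Col6a2 window, not shown, held 6 CpG dinucleotides and 1 GC box. None of these windows held the TATA box TATAAA on either strand. Among all 32851 RefSeq windows of this length 35.7% held the GC box and 13.6% the TATA box, against 20 and 3 of 31 windows of the 26 neighbours that were matched. Those 26 include Ftcd, which holds 1 of the 3 TATA boxes, and Spatc1l. The median share of G and C was 62.3% over the neighbours' windows and 52.7% over all windows. The part of base composition in the GC box counts was not tested. A match of letters is a description and marks no binding site.

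For most neighbours the mRNA level in condition A was close to that in condition B. None of the 29 had an adjusted p under 0.05 in the authors' DESeq table, where 3 of all 15191 genes did (0.0197%). An unadjusted p under 0.05 was found for 1 of 29, Col6a1, against 1.86% of all listed genes. Differences stayed under 1.2-fold for 28 of the 29 by the means of the authors' deposited table (96.6%), as they did for 91.6% of all listed genes. The mean was higher in condition A for 24 of the 29 and higher in condition B for 5. Over all listed genes the mean was higher in condition A for 52.9%. The median log2 difference of the 29 was 0.029 and that of all listed genes 0.006, and the 29 ranged from -0.056 to 0.563. The mean of the 29 was 0.069, and the median was 0.056 over the 16 whose exons overlap no other gene, by the count of overlaps given below.

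**Figure D1:**
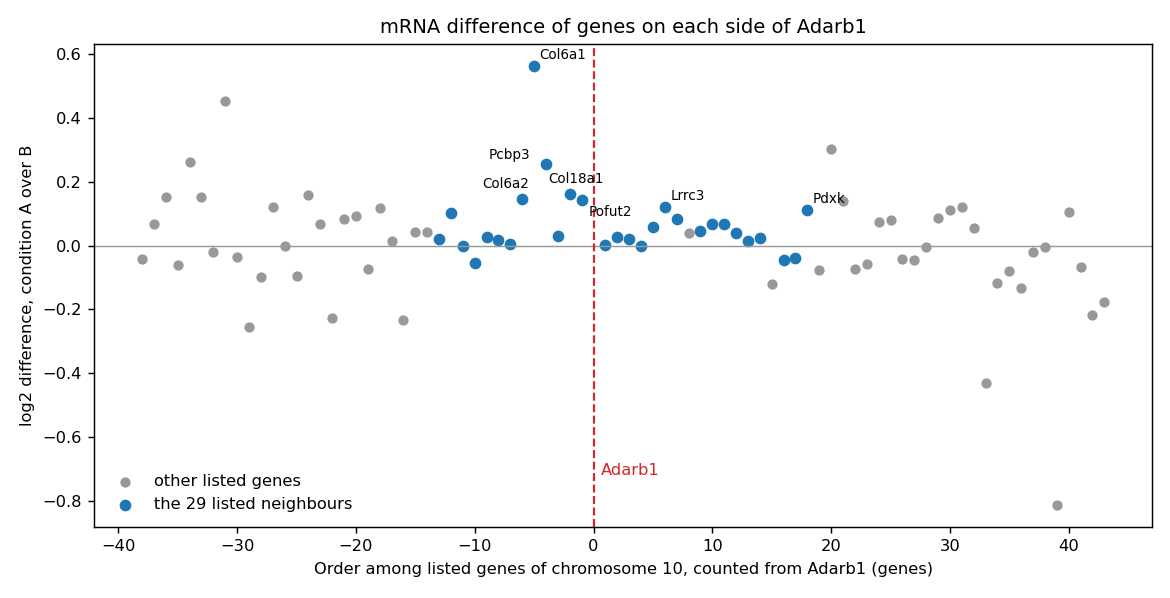
Log2 difference of condition A over B (vertical axis) for the 29 listed neighbours (blue) and the next 25 listed genes of chromosome 10 on each side together with 2 others between the neighbours (grey), in the order in which they lie on the chromosome, counted in listed genes from Adarb1 (dashed line, its own value of -2.21 lies below the axis). Each point is 1 gene from the authors' group means, with no error available. Col6a1 at 0.56 is the highest point and the other neighbours lie between -0.06 and 0.25.

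Col6a1, which encodes a chain of collagen VI, had the largest difference of the neighbours. In the authors' deposited table Col6a1 had a mean normalized count of 1595.3 in condition A and 1080.0 in condition B. It was 1.48-fold higher in A (log2 difference 0.56), and the authors' DESeq table gave it p = 0.000392 before and 0.62 after adjustment. Col6a1 stood 13th among all listed genes by p. Of the 4908 genes with a mean count at least as high, 13 had a log2 difference at least as large in size, 3 of them, Col6a1 included, with more RNA in A. Col6a2, which encodes the chain that assembles with the product of Col6a1, had 516.1 in condition A and 466.6 in condition B in the authors' deposited table (log2 difference 0.15, unadjusted p = 0.41). Col6a3, a collagen VI chain encoded on another chromosome, stood at 143.3 in A and 156.6 in B in the authors' deposited table (log2 difference -0.13, unadjusted p = 0.575). Col6a4 had 114.0 in A and 96.56 in B in the authors' deposited table (log2 difference 0.24), and Col6a6 had 15.66 and 17.45 (log2 difference -0.16). The collagen VI chains encoded elsewhere thus lay on both sides of 0, and whether the chains differ from each other was not tested.

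Col18a1 encodes collagen XVIII, a basement membrane collagen whose end piece is released as endostatin. It was among the least abundant neighbours, with 97.88 mean normalized counts in condition A and 87.48 in condition B in the authors' deposited table (log2 difference 0.16, unadjusted p = 0.423). Per kb of exon it had the lowest level of the 29, at 13.2 mean counts, where Col6a1 had 305.4 and Col6a2 59.01.

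Other matrix genes of vessels and meninges were read beside the collagens. Of 23 such genes 22 were listed, 15 higher in condition A and 7 higher in condition B, with a median log2 difference of 0.045, and 0 of 22 had an adjusted p under 0.05 in the authors' DESeq table. An unadjusted p under 0.05 was found for 1, the fibrillar collagen gene Col3a1, with 673.8 in A and 409.6 in B in the authors' deposited table (log2 difference 0.72, unadjusted p = 0.037). Of 9 markers of meninges and fibroblasts, Col3a1 among them, 7 were higher in A, and their summed mean count was 29994.2 in A and 28552.8 in B. Ptgds made up most of both sums, with 24339.7 in A and 23234.8 in B (log2 difference 0.067). Col1a1, of the same list, stood at 371.4 in A and 430.3 in B (log2 difference -0.21). Of 8 markers of endothelium and pericytes 3 were higher in A, with summed mean counts of 10786.4 and 10671.9. The part of these cells in the Col6a1 difference was not tested.

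The genes next to Adarb1 are Pofut2 on one side and Fam207a on the other. Pofut2 encodes an enzyme that adds fucose to thrombospondin repeats, and in the authors' deposited table it had 687.7 in condition A and 622.8 in condition B (log2 difference 0.14, unadjusted p = 0.221). Fam207a had 867.9 and 866.8 in the authors' deposited table (log2 difference 0.002, unadjusted p = 0.957), the smallest positive difference of the 29. The next nearest were Itgb2, the beta subunit of leukocyte integrins, with 136.2 in A and 133.8 in B (log2 difference 0.026), then Col18a1 above, and then Pttg1ip, which encodes a binding protein of securin, with 1530.1 and 1508.0 (log2 difference 0.021). None of the 5 nearest genes had an unadjusted p under 0.05.

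**Figure D2:**
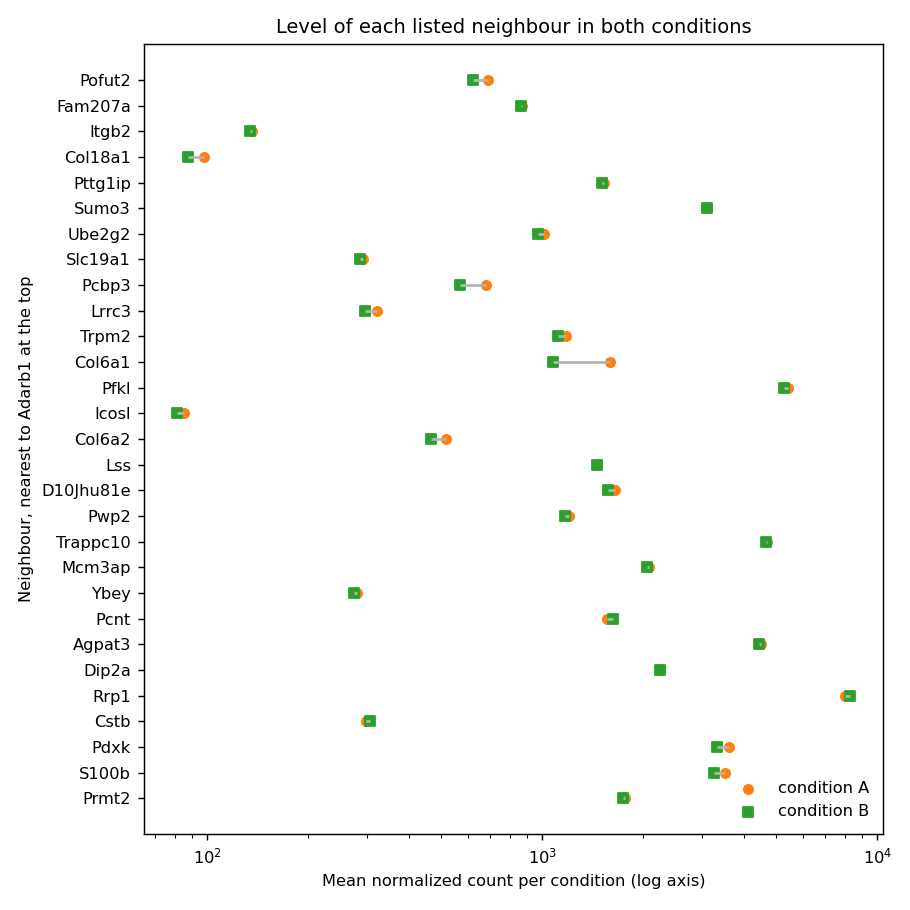
Mean normalized count of each listed neighbour in condition A (orange circles) and condition B (green squares) on a log axis, ordered by distance from Adarb1 with the nearest at the top. The points are the authors' group means, with no error available, and the pair for Col6a1 (1595.3 and 1080.0) is the most widely separated.

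Order along the chromosome was then compared with the differences. On the side of lower coordinates, the 6 listed genes from Pofut2 to Col6a2 (Pofut2, Col18a1, Slc19a1, Pcbp3, Col6a1 and Col6a2) were all higher in condition A, with log2 differences from 0.029 to 0.563 and a median of 0.154. Slc19a1, the reduced folate carrier, had the smallest of these, with 291.8 in A and 286.0 in B in the authors' deposited table. Pcbp3, which encodes a protein that binds poly(C) stretches of RNA, had 679.0 in A and 569.1 in B, the second largest log2 difference of the 29 (0.25), but an unadjusted p of 0.785. Slc19a1 at 0.029 lies between Col18a1 at 0.162 and Pcbp3 at 0.255, and whether adjoining genes differ from each other was not tested. This run of genes was singled out after its values were seen.

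Beyond Col6a2 the listed genes on that side ranged from -0.056 to 0.102. Lss, which encodes lanosterol synthase of the cholesterol pathway, had 1458.3 in condition A and 1453.5 in condition B in the authors' deposited table (log2 difference 0.005). Mcm3ap, a scaffold of nuclear mRNA export, had a log2 difference of 0.016, and Ybey, which encodes a ribonuclease, had one of 0.027. Pcnt encodes pericentrin of the centrosome and was the lowest of the 29, with 1564.9 in A and 1626.7 in B in the authors' deposited table (log2 difference -0.056, unadjusted p = 0.618). Dip2a had 2241.8 in A and 2241.9 in condition B. S100b, a calcium-binding protein gene of astrocytes, had 3503.6 in A and 3263.3 in B in the authors' deposited table (log2 difference 0.10, unadjusted p = 0.313). The other 7 astrocyte markers ranged from -0.079 to 0.271. Prmt2, a protein arginine methyltransferase gene, was the most distant neighbour, with a log2 difference of 0.021.

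On the side of higher coordinates, 13 of 16 genes were higher in condition A, with log2 differences from -0.046 to 0.121 and a median of 0.033. Lrrc3 had the largest of them, with 322.1 in A and 296.1 in B in the authors' deposited table (log2 difference 0.12, unadjusted p = 0.371). Pdxk, which encodes the kinase that activates vitamin B6, had 3604.6 in A and 3335.9 in B (log2 difference 0.11), and its unadjusted p of 0.211 was the second smallest of the 29. Trpm2, a cation channel opened under oxidative stress, had 1179.4 and 1113.5 in the authors' deposited table (log2 difference 0.083, unadjusted p = 0.48). These genes differed by at most 1.09-fold, and none had an unadjusted p under 0.05.

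The remaining genes of this side differed by less. Sumo3, a small ubiquitin-like modifier, had 3099.8 in condition A and 3104.9 in condition B in the authors' deposited table, and Ube2g2, a ubiquitin-conjugating enzyme of protein degradation at the endoplasmic reticulum, had 1009.9 and 969.2. Pfkl, the liver-type phosphofructokinase of glycolysis, had 5424.6 in A and 5263.3 in B. Icosl, a ligand of the T cell receptor ICOS, was the least abundant neighbour by count, with 85.45 and 81.46. The log2 difference was 0.069 for both Icosl and D10Jhu81e. Pwp2 and Rrp1 belong to ribosome assembly and lay at 0.040 and -0.046. Rrp1 was the most abundant neighbour, with 8027.5 in A and 8284.7 in B in the authors' deposited table, and was also highest per kb of exon at 2444.1 mean counts, followed by S100b at 2279.9. Trappc10, a subunit of a Golgi tethering complex, stood at 0.015, Agpat3, an acyltransferase of phospholipid synthesis, at 0.024, and Cstb, an inhibitor of cathepsins, at -0.040.

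Distance from Adarb1 was set beside the differences. Across the 29 genes the rank correlation of order of distance with log2 difference was -0.3, and with the size of the difference regardless of sign it was -0.13. These describe genes that share the same libraries and are not independent. The nearer genes (15 of the 16 nearest were listed) had a median of 0.069, with 14 of 15 higher in condition A, and the farther ones (14 listed) a median of 0.019, with 10 of 14 higher in A. The nearer genes were also less abundant, with a median mean count of 655.3 against 1913.9. Among all listed genes, lower mean counts went with larger differences (rank correlation -0.45 across genes), and among the 29 this correlation was -0.31. The part of abundance in the difference between nearer and farther genes was not tested.

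Genes farther out on chromosome 10 served as a comparison. Of the next 25 listed genes on the lower side 14 were higher in condition A (median log2 difference 0.041), and of the next 25 on the higher side 9 were (median -0.041). Over all 650 other listed genes of the chromosome, Adarb1 left out, 52.9% were higher in A with a median of 0.006, and 14 had an unadjusted p under 0.05, 3 of them higher in A. Among all 15191 listed genes 283 had such a p (1.86%), 128 of them higher in A. None of the 650 had an adjusted p under 0.05 in the authors' DESeq table.

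**Figure D3:**
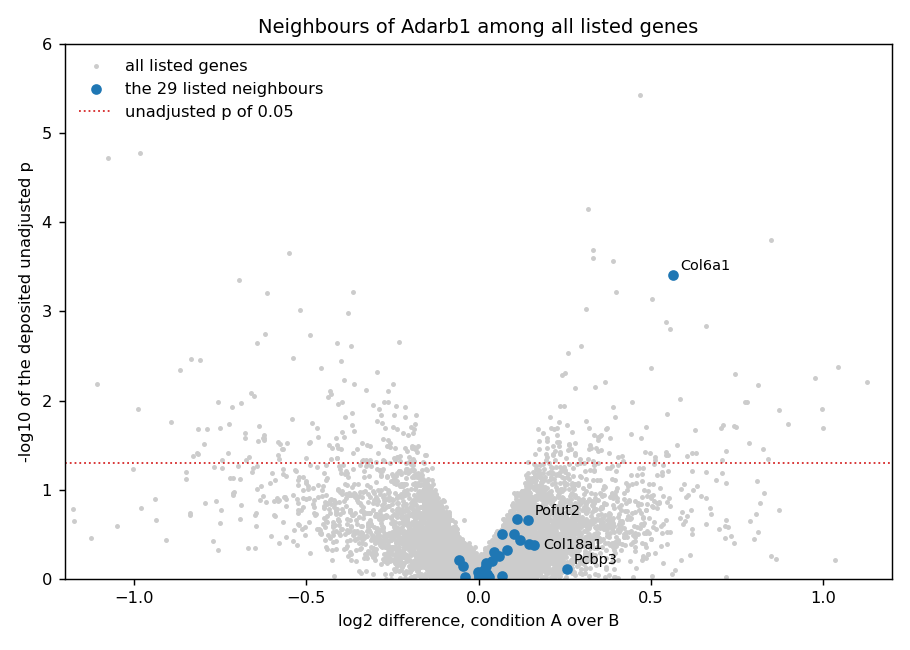
Log2 difference of condition A over B (horizontal axis) against -log10 of the authors' unadjusted p (vertical axis) for all listed genes (grey) and the 29 listed neighbours (blue), where Adarb1 and genes beyond the axes are not drawn. In the authors' DESeq values Col6a1 (log2 difference 0.56, p = 0.000392) is the only neighbour above the dotted line at p = 0.05, and Pcbp3 combines a log2 difference of 0.25 with p = 0.785.

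Functional partners encoded elsewhere were listed to place the other neighbours. Of 31 genes around folate, sterol, vitamin B6, glycolysis and phospholipid synthesis 29 were listed, 19 higher and 10 lower in condition A, with a median log2 difference of 0.031, and 0 had an adjusted p under 0.05 in the authors' DESeq table. Their log2 differences ran from -0.16 for Tyms, thymidylate synthase, to 0.19 for Shmt1, a serine hydroxymethyltransferase. Of 31 genes of ubiquitin, SUMO, cathepsin and Golgi function 14 were higher in A (median -0.009) and 0 passed. Ctss, the microglial protease cathepsin S, had 1988.2 in A and 1800.0 in B in the authors' deposited table (log2 difference 0.14, unadjusted p = 0.0489).

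Of 31 genes of the centrosome, RNA binding and ribosome assembly 15 were higher in condition A, with a range from -0.09 for Prmt5 to 0.25 for Pcbp2, a relative of Pcbp3, and 0 passed. A further list held partners of Itgb2, microglial genes, Icos, Trpm4 and Trpm7. Of its 15 genes 12 were listed and 9 were higher in A (median 0.066), with 0 passing. The 8 microglia markers counted above are all in this list, so the 2 counts are not separate. Itgam, which encodes an alpha subunit that pairs with the product of Itgb2, had 838.2 in A and 813.3 in B in the authors' deposited table (log2 difference 0.044). Itgal, Itgax and Icos were not matched in the table. The highest log2 difference of the list was that of Aif1, a microglial marker, at 0.28, and the lowest that of Trpm7, at -0.041.

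Exon usage in the neighbours was compared next. A bin is a piece of an exon, and its value describes its share within the gene, so it can move while the level of the gene does not. Bins of 28 of the 32 genes were listed, with none for Col18a1. Of the 471 bins 0 had an adjusted p under 0.05 in the authors' deposited table, where 11 of all 149137 tested bins did (0.00738%). Of those 11, 8 were in Adarb1 itself, which left 3 of 149119 bins outside it. In Adarb1 the lowest log2 value was -5.23 for bin E009 and the highest 1.88 for bin E020, knockout over control, in the authors' deposited table. An unadjusted p under 0.05 was found for 4 bins (0.849%), against 1.67% of all bins, and one under 0.01 for 1 bin (0.212%), against 0.266% of all bins. By the authors' deposited table, bins higher in the knockout numbered 235 and bins lower in it 236, with a median log2 value of -0.001.

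The 4 bins belonged to 3 genes. Col6a1 E037 had a log2 value of -0.36 in the authors' deposited table (mean count 90.38, unadjusted p = 0.00506, adjusted p = 1) and Col6a1 E036 one of -0.50 (mean count 34.65, unadjusted p = 0.0127, adjusted p = 1). Both were lower in the knockout relative to the rest of the gene. Col6a2 E005 was at 0.30 (unadjusted p = 0.0402) and Dip2a E051 at -0.32 (unadjusted p = 0.0364), and adjustment in the authors' deposited table took both to 1.

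**Figure D4:**
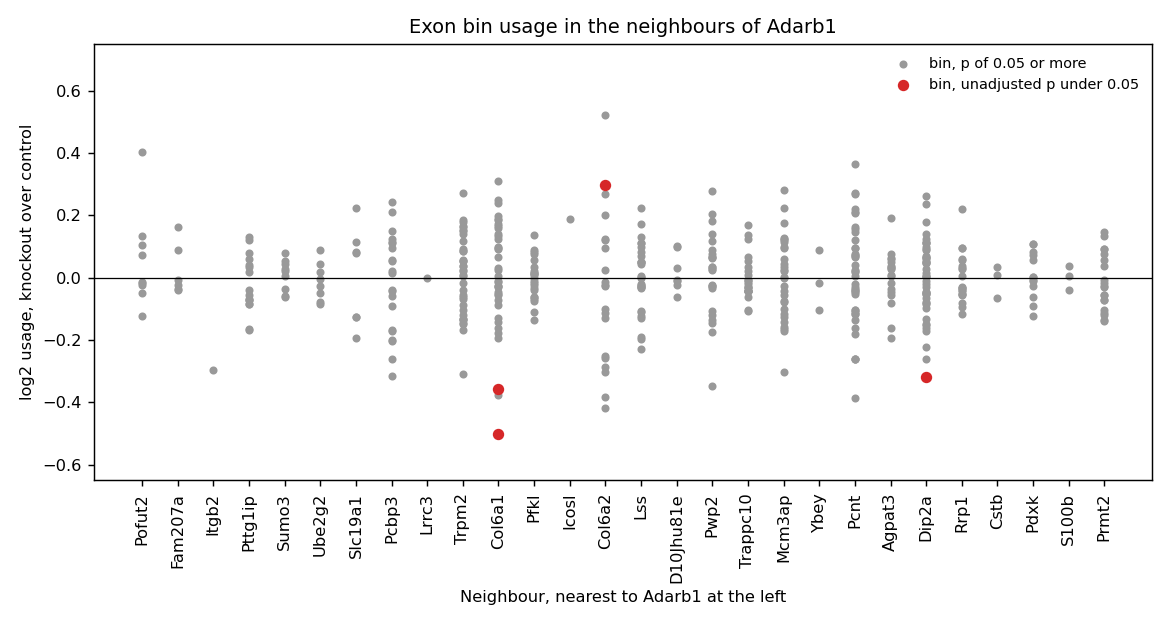
Log2 usage of each exon bin, knockout over control (vertical axis), for the 28 neighbours with listed bins, nearest to Adarb1 at the left. Each point is 1 bin from the authors' table, red where the unadjusted p is under 0.05, and the 4 red points lie in Col6a1, Col6a2 and Dip2a.

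Within Col6a1 the bins of like sign lay next to each other. Of its 37 listed bins, the 14 from E009 to E023 were all positive, from 0.005 to 0.311, and the 8 from E034 to E041 were all negative, from -0.501 to -0.025, in the authors' deposited table. Between E034 and E038 the values were -0.13, -0.38, -0.50, -0.36 and -0.18. Col6a2 had 20 listed bins, and the 10 from E017 to E026 were all negative, from -0.419 to -0.022. Reads that span adjoining bins are shared between them, so the bins of a run are not independent. Col6a1 lies on the minus strand, and whether bins are numbered along the chromosome or along the gene is not given in the sources used here.

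**Figure D5:**
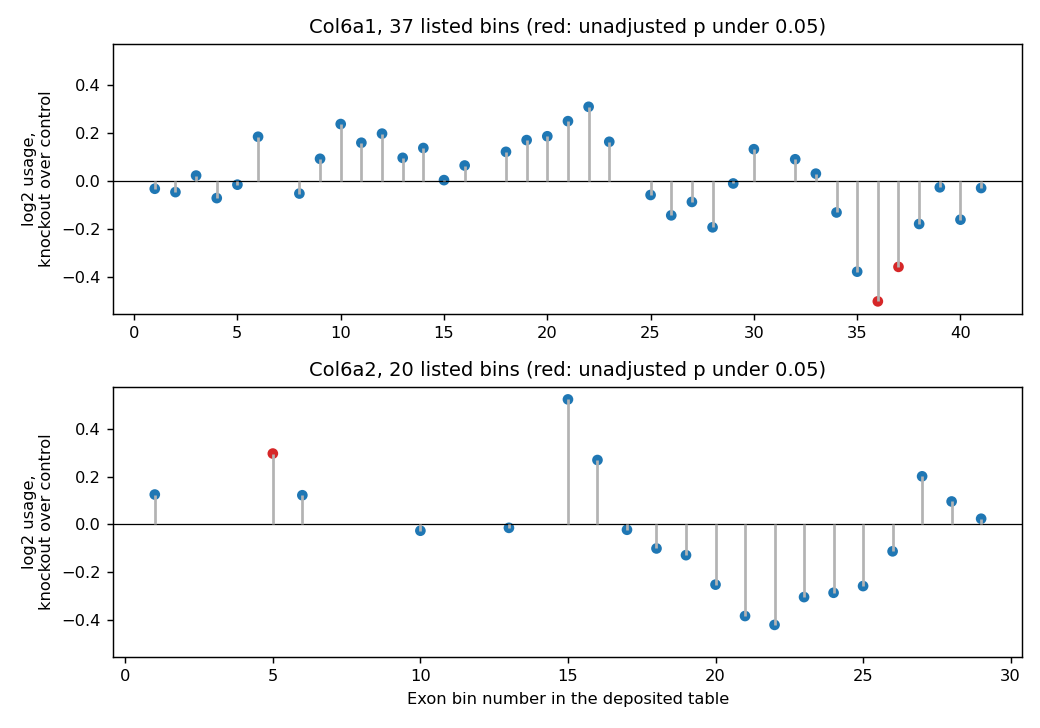
Log2 usage of each listed bin of Col6a1 (top, 37 bins) and Col6a2 (bottom, 20 bins), knockout over control, by bin number in the deposited table, with red for an unadjusted p under 0.05. The lowest Col6a1 bin is E036 at -0.50 and the lowest Col6a2 bin is E022 at -0.42.

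The bins of both collagen genes had few reads and a high dispersion score. The median mean count was 48.18 for Col6a1 bins and 27.36 for Col6a2 bins, where the median of all tested bins was 91.74. The deposited dispersion, a score of the spread between libraries in the count model, had medians of 0.0236 and 0.0368 against 0.0161. Lss E027, with a mean count of 44.42, had the same score as Col6a1 E029 with 44.33 (0.0235). Whether the spread was wider than in other bins of like count was not tested. The median size of a log2 value, regardless of sign, was 0.13 for Col6a1 bins and 0.164 for Col6a2 bins, against 0.067 for all bins. Among abundant neighbours the range of bin values varied. By the authors' deposited table the 20 bins of Rrp1, the most abundant, ran from -0.115 to 0.221, and the 18 Agpat3 bins ran from -0.194 to 0.193. The Rrp1 bin at 0.221 had a mean count of 61.07, where the highest bin mean of that gene was 1814.1. The Agpat3 bins at -0.194 and 0.193 had mean counts of 114.7 and 27.11, where the highest was 1333.3. The 23 Pfkl bins ran from -0.135 to 0.136, the 9 Sumo3 bins from -0.062 to 0.080 and the 3 S100b bins from -0.038 to 0.037.

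Shared sequence limits the reading of some neighbours. In the GENCODE M21 annotation (GRCm38), exons of 13 of the 29 listed genes overlap exons of another annotated gene, and for 9 of them a gene on the opposite strand. Mcm3ap and Ybey overlap each other in this way, and Pofut2 overlaps Gm10941. The library kit keeps strand, but the labels do not say whether counting used it, so reads of such pairs may not be separable. With TEC genes left out, Col6a1, Col6a2 and Col18a1 overlap no other annotated exon. The exon table joins Prmt2 with another gene under 1 entry. By strand, 9 of 11 neighbours on the plus strand and 15 of 18 on the minus strand were higher in condition A. Of the 143 sites of the editing table, in 95 genes, 0 lay in the 32 neighbours, and its 7 sites on chromosome 10 belonged to 4 other genes.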

How the data were processed

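Per the labels' protocols, RNA was extracted with Trizol and made into stranded total RNA libraries after removal of ribosomal RNA. Named without role or order in the submitters' processing notes are mm9, SAMtools 01.19.0, DESeq, HTSeq, Bowtie2 2.02.0 and TopHat2 2.0.6. Per the file headers, the authors deposited for each gene the mean normalized count as a signal, over both conditions and in each, a ratio of B over A and its log2, and p-values before and after adjustment. For each exon bin they deposited a mean count signal, a dispersion score, p-values before and after adjustment, and the log2 of control against Adar2, per the file headers. The editing table gives the authors' percent of edited reads, and another deposited value, the position. In the gene table the authors name the conditions only A and B. No table holds values per library, so no test of gene level or exon usage was fitted here and the authors' p-values were used at an adjusted p under 0.05.

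The members and lists were chosen with earlier results of these data known. Names were matched directly or through 1 RefSeq synonym, and 14479 of 15191 gene names could be placed on a chromosome. Order along the chromosome came from RefSeq and GENCODE M21 on GRCm38, which is not the build of the files, so only order is used. Counts per kb divide the mean count by the merged exon length in GENCODE M21. Promoters are from RefSeq on GRCm38.p6. Named in full were neighbours with an unadjusted p under 0.05 or a bin p under 0.01, the 5 nearest, and those with the highest and lowest count and difference. In partner lists, genes with an unadjusted p under 0.05 or else the extremes were named. The adjustment was checked on simulated p-values, with Python 3.11.15, numpy 2.4.6 and pandas 2.3.3. Alternatives changed the threshold, the adjustment, the minimum mean count and the genes included.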

Additional observations from a re-analysis of the deposited data

How the results depend on the processing

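The counts of 0 genes and 0 bins with an adjusted p under 0.05 were the same at 0.1 and adjusted over listed rows alone. They were also the same when genes needed a mean count of 100 and bins one of 50. Bonferroni gave 0 as well. It is never less strict than the Benjamini-Hochberg adjustment over the same rows, so it could not have added a call. With an unadjusted p under 0.05 there was 1 gene, Col6a1, and 4 bins. The adjusted p of Col6a1 was 0.62 as deposited, 0.458 over the listed genes and 0.482 with a mean count of at least 100 (Benjamini-Hochberg on the authors' DESeq p-values). The median log2 difference of 0.029 became 0.069 with the 15 nearer genes, 0.069 as a mean, and 0.056 without genes whose exons overlap another gene. The other 4 alternatives gave 0.023 to 0.04, so this difference stayed positive throughout. The rest of the 17 alternatives were counts of calls, which have no direction to change. Alternatives by name matching, overlap and without Col6a1 were chosen after seeing the data. No paired analysis was possible because only group values were deposited, and the replicate numbers follow accession order. For the same reason leaving out a library, other normalizations and count tests were not run.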

Other observations

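Genes and exon bins with small p-values on chromosome 10 also lay well outside the neighbours of Adarb1, on both sides. Of the 14 genes out of 650 with an unadjusted p under 0.05, 5 lay on the side of lower coordinates and 9 on that of higher coordinates. Among all 15191 listed genes 283 had such a p (1.86%). Of the 26 bins with an unadjusted p under 0.01, 8 lay on the lower side and 18 on the higher. Neither split was set against the number of listed genes or bins on each side. On the lower side, Moxd1 had 169.2 mean normalized counts in condition A and 221.7 in condition B in the authors' deposited table (log2 difference -0.39, unadjusted p = 0.00589, adjusted p = 1). Rev3l, which encodes the catalytic subunit of DNA polymerase zeta, had 3 of the 8 bins, at log2 values of 0.64, 0.50 and 0.39 (adjusted p = 1 for each in the authors' deposited table). The genes named here were chosen after their values were seen. On the higher side, counted in listed genes from Adarb1, Tdg, a thymine DNA glycosylase gene, is the 132nd and Hcfc2, a gene related to a host cell factor of transcription, the 134th. In the authors' deposited table Tdg had 650.2 mean normalized counts in condition A and 837.4 in condition B (log2 difference -0.365, unadjusted p = 0.000607), and Hcfc2 had 2048.4 and 2341.0 (log2 difference -0.19, unadjusted p = 0.0337). Both had fewer counts in A, and their adjusted p in the authors' DESeq table was 0.787 and 1. On this chromosome, Adarb1 and its neighbours left out, 14 genes had an unadjusted p under 0.05. Of these 11 were lower in A, Tdg and Hcfc2 among them. Over all listed genes, 128 of the 283 with such a p were higher in A.

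Of the 6814 tested bins of chromosome 10 outside Adarb1, 27 (0.396%) in 22 genes, Col6a1 E037 included, had an unadjusted p under 0.01, against 0.266% of all bins, and 5 of these 27 were in Tdg and Hcfc2. In the authors' deposited table the log2 values of knockout over control were -0.80 for Hcfc2 E022 (adjusted p = 1.23e-10), and -0.34, -0.72, -0.65 and 0.505 for Tdg E024, E022, E020 and E006 (adjusted p = 0.0619, 0.0812, 0.85 and 1). Slc17a8, the 178th listed gene from Adarb1 on the same side, which encodes a vesicular glutamate transporter, had 44.07 in A and 92.86 in B in the authors' deposited table (unadjusted p = 1.88e-05, adjusted p = 0.0596). How far DNA of the targeted allele reaches along the chromosome was not tested.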
